A study of Mus musculus with 2 samples.

Results

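A set of 40 mouse genes that run mitosis was followed through every cell class of an orthotopic mouse glioblastoma.
They were chosen by symbol, from cyclins and kinases to spindle motors and cytokinesis proteins, by a rule that uses no measured value, although earlier results of these data were known when it was set.
The matrices held 19059 genes and a row for 39 of the 40 members. Ccnb1, which encodes cyclin B1, had no row and so has no expression value here; its promoter is among those searched for motifs.
The study placed mGSC, a mouse glioblastoma stem cell line of genotype Trp53+/- and Nf1+/-, in the brains of C57BL/6J mice and dosed them daily with vehicle or with Xevinapant, an oral antagonist of inhibitor of apoptosis proteins.
Tumors were dissociated right after the last dose, and 4 matrices of UMI counts (unique molecular identifiers, which count single tagged molecules, here of a probe-based assay) were deposited for each group. The names of the Xevinapant matrices carry the word vehicle; the sample labels were followed, and every difference between the groups rests on those labels. All tumors therefore came from 1 cell line in hosts with an intact immune system.

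Mitosis is driven by cyclin-dependent kinase 1, which cyclins A and B activate and the phosphatase Cdc25c releases from inhibition. Polo-like and Aurora kinases then build the spindle, kinetochore proteins tie chromosomes to it, and the checkpoint holds anaphase until every chromosome is attached.
The anaphase-promoting complex, turned on by Cdc20, destroys cyclin B so that the cell can divide. RNA of most of these genes climbs late in S phase, peaks in G2 and mitosis and is low in resting cells, which is why Mki67 and Top2a serve as proliferation markers in glioma.

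The CCAAT box (bound by NF-Y) and the cell cycle homology region, whose core has the letters TTTGAA, are known promoter elements of G2/M genes. The 39 measured members lay on 16 chromosomes. RefSeq promoters (build GRCm38.p6, 250 bases before to 50 after the start) were matched for 33 of the 40 symbols, Ccnb1 included.
CCAAT was found on either strand in 26 of the 33 (78.8%), against 41.9% of 14935 genes of the matrices with a promoter. At least 2 copies were found in 20 (60.6%, against 14.2%).
TTTGAA was found in 26 (78.8%, against 17.3%), and both motifs in 22 (66.7%, against 7.0%). In an outside list of G2/M genes (33 with a promoter) 63.6% held CCAAT, 33.3% at least 2 copies, 63.6% TTTGAA and 48.5% both. In an outside list of S-phase genes (29 with a promoter) the shares were 62.1%, 37.9%, 13.8% and 6.9%, so CCAAT was about as common there as in the outside G2/M list.
Both motifs were searched on both strands, and a match is a description of the sequence and not a measured binding site. The promoters of 4 genes with both motifs are printed to show the layout, together with that of Mad2l1, which had neither in the stretch searched. That stretch ends at base 66535270, before the gene start of 66535390 in the GENCODE annotation, so the sequence at that start was not searched. Capitals mark CCAAT and TTTGAA on either strand.
They lie at chr9:70421505-70421804 (minus strand), chr4:118437294-118437593 (minus), chr2:172370521-172370820 (minus), chr7:122159185-122159484 (plus) and chr6:66534971-66535270 (plus).
Ccnb2 promoter: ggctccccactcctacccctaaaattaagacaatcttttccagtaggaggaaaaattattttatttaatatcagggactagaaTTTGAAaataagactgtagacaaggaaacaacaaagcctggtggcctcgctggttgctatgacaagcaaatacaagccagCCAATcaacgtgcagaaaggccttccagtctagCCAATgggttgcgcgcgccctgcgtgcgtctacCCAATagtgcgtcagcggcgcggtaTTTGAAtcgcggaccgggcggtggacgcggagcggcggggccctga
Cdc20 promoter: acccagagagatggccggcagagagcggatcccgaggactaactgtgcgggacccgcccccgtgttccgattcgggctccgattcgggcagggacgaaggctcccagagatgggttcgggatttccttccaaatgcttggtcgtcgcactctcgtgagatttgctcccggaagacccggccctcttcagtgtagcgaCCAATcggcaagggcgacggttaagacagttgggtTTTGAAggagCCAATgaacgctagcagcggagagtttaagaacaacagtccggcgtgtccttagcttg
Aurka promoter: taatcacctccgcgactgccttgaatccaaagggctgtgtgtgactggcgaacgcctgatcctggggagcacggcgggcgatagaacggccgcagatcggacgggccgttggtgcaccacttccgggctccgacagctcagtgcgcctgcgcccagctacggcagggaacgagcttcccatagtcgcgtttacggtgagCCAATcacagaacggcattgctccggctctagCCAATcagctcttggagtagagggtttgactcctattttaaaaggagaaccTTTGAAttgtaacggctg
Plk1 promoter: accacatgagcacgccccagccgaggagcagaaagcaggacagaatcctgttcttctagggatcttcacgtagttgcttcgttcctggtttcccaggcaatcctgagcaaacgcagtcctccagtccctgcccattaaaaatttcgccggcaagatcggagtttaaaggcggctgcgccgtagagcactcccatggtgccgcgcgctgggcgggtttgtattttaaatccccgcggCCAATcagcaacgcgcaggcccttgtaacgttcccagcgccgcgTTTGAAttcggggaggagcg
Mad2l1 promoter: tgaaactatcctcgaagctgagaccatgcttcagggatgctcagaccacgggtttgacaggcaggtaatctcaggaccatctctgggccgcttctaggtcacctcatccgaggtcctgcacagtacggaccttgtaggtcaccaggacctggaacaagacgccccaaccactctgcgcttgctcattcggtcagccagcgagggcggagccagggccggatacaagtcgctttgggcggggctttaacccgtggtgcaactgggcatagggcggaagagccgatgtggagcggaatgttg
In Ccnb2, the gene of cyclin B2, CCAAT began at offsets -87, -54 and -21 from the start of the gene and TTTGAA at offsets -167 and 4. In Cdc20 CCAAT began at -53 and -8 and TTTGAA at -18.

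The files held 56943 barcodes, and 53426 were kept. Median UMIs per matrix ran from 7452 to 14027. In all, 3 pairs of matrices within a group were much more alike than the rest: their genes differed by 1.23 (vehicle 1 and 3), 2.71 (Xevinapant 1 and 2) and 3.23 times (Xevinapant 3 and 4) the sampling noise. All remaining within-group pairs lay between 10.9 and 36.1 times. The paper's results give 4 tumors per group, so the matrices may be separate mice. Each alike pair was joined, the more cautious choice, and calls with every matrix as 1 mouse are given with the states. Joining left 3 vehicle samples (1 and 3, 2, 4) and 2 Xevinapant samples (1 and 2, 3 and 4).
With 3 against 2 samples no exact permutation test over samples can go below p = 0.1. The groups also differ in library pool, batch date and the labelled molecule (total or polyA RNA), and treatment and batch cannot be told apart. In addition, 1413 barcodes occurred in matrices of both groups, all of them between a vehicle and a Xevinapant matrix of the same number (178, 321, 386 and 528 for numbers 1 to 4), and the smaller partner of 1152 unequal pairs was left out.
Cells were gated by marker UMIs that share no gene with the members. The malignant class rests on glial markers alone. The paper used inferred copy number to tell tumor cells from normal ones, and no such step was run here. Host glial cells that carry these markers may thus be in the malignant class, and their part was not tested. Malignant cells (42266) carried 7428 CPM (UMIs scaled to a common library size) of glial tumor markers such as Olig2 and Sox10, against 909 in immune cells. Under the sample labels, immune cells numbered 512, 236 and 595 in vehicle and 1218 and 1008 in Xevinapant. Malignant cells numbered 7080, 5925 and 12275 in vehicle and 5788 and 11198 in Xevinapant. The paper also reports a larger share of immune cells after Xevinapant. An exchange of labels was not tested.

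In malignant cells the 39 members together made up 7245, 7531 and 7982 CPM in the vehicle samples and 5336 and 6080 CPM in the Xevinapant samples. Both Xevinapant samples lay below all vehicle samples.
The number of members with a UMI in a cell had a peak at few members and another near the complete set. The median was 17, 19 and 22 members in the vehicle samples and 10 and 17 in the Xevinapant samples, so here the groups touched.
At least 20 members were detected in 45.8%, 48.7% and 54.2% of vehicle malignant cells and in 32.5% and 45.1% of Xevinapant ones. Neutrophils, which do not divide once mature, had a median of 0 members per cell over 284 cells, at a median of 1467 UMIs against 14350 in malignant cells, so their depth was too low to set a share of cells with 20 members beside this one.

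**Figure D1:**
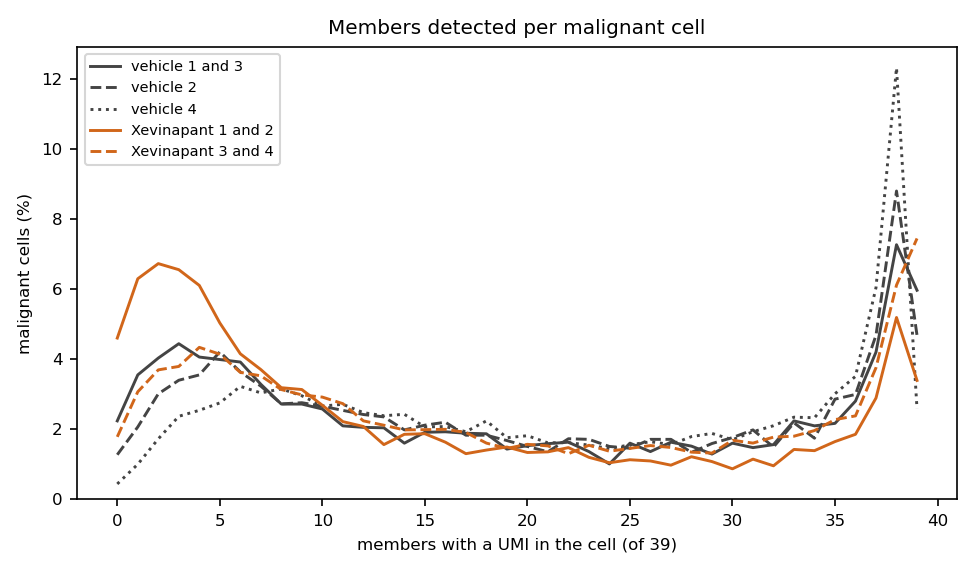
Share of malignant cells (y axis, percent) by the number of members with a UMI (x axis, of 39), 1 line per sample; vehicle is grey and Xevinapant orange. Every sample has an upper peak at 38 members except Xevinapant 3 and 4, which rises to 7.44% at 39, and Xevinapant 1 and 2 holds the most cells with few members.

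The tumor states differed in mitotic load. OPC-like cells (oligodendrocyte progenitor-like, the most common state at 26667 cells) had 7581, 7682 and 8511 CPM of members in vehicle and 5842 and 6496 in Xevinapant.
MES-like (mesenchymal-like) cells had 3917, 4606 and 4296 CPM in vehicle and 2852 and 2798 in Xevinapant. AC-like (astrocyte-like) cells had 2274, 2395 and 2945 CPM in vehicle and 2056 and 1513 in Xevinapant.
Premyelinating oligodendrocyte-like cells had 2722, 4913 and 4861 CPM in vehicle and 1600 and 2320 in Xevinapant. In each of these 4 states both Xevinapant samples lay below every vehicle sample. With each matrix as 1 mouse this held in OPC-like and MES-like cells, while AC-like cells overlapped (Xevinapant 1 at 2450 CPM, vehicle 1 at 1953 CPM), as did premyelinating-like cells (Xevinapant 4 at 3060 CPM, vehicle 1 and vehicle 3 at 2909 and 2601 CPM). OPC-like cells lay above the other 3 states in all 5 samples, given as a description without a test.
NPC-like (neural progenitor-like) cells had 3798, 4216 and 6587 CPM in vehicle and 3942 CPM in Xevinapant 3 and 4, while Xevinapant 1 and 2 had 9 such cells and 762 CPM, too few to compare.
Of the myeloid classes, microglia had the highest pooled level, with 5766, 3723 and 5746 CPM in vehicle and 5557 and 5040 in Xevinapant, and here the groups overlapped. Macrophages and monocytes had 1554, 3503 and 2065 CPM in vehicle and 1831 and 1683 in Xevinapant, which also overlapped. Neutrophils had 1103, 860 and 789 CPM in vehicle (31, 7 and 8 cells) and 369 and 974 CPM in Xevinapant (173 and 65 cells), so their level was lowest in Xevinapant 1 and 2, which was also the lowest malignant sample, at 5336 CPM. In Xevinapant 3 and 4, the next lowest malignant sample, the neutrophil level lay above vehicle 2 and vehicle 4. Whether these neutrophil UMIs are background from other cells was not tested, nor was any such part in the malignant values.

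The members were compared between gated cells. A G2/M gate used 40 other G2/M genes (such as Birc5, Foxm1 and Racgap1) and an S gate used 38 S-phase genes (such as Pcna and Mcm2). A cell passed a gate with at least 20 of its genes detected. Of all malignant cells 44.5% passed the G2/M gate, 51.7% the S gate and 40.4% both. Most cells in the G2/M gate were thus also in the S gate, and few were in the G2/M gate alone. Median depth was 25268 UMIs inside the G2/M gate and 8187 outside it.
Between malignant cells in the G2/M gate alone and in the S gate alone, Aspm, which focuses spindle poles, showed the steepest log2 difference in CPM, 3.88 ± 0.30 (SD, n = 5 samples). Kif23, the central spindle motor of cytokinesis, followed at 3.72 ± 0.20 and Hmmr, a spindle assembly protein, at 3.66 ± 0.21.
The flattest were Ccnb2 at 1.09 ± 0.64, Mad2l1, which makes the checkpoint's inhibitor of Cdc20, at 1.34 ± 0.30, Nuf2 of the Ndc80 complex at 2.22 ± 0.25, Cdk1 at 2.25 ± 0.19, Ccna2 at 2.27 ± 0.34 and Top2a, the topoisomerase that untangles chromosomes, at 2.28 ± 0.17. Counts of Ccnb2 were low, with means of 20.6 CPM in the G2/M gate alone and 8.93 CPM in the S gate alone. Its log2 difference ran from 0.01 to 1.56 over the samples, so its place in the order is uncertain.
Mad2l1 was also the member with the largest log2 difference between S-gated and ungated cells, 0.95 ± 0.14, while Ube2c, the E2 enzyme of the anaphase-promoting complex, was at -0.21 ± 0.16. The gates share the cells' depth with the members, so these differences are a description.

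**Figure D2:**
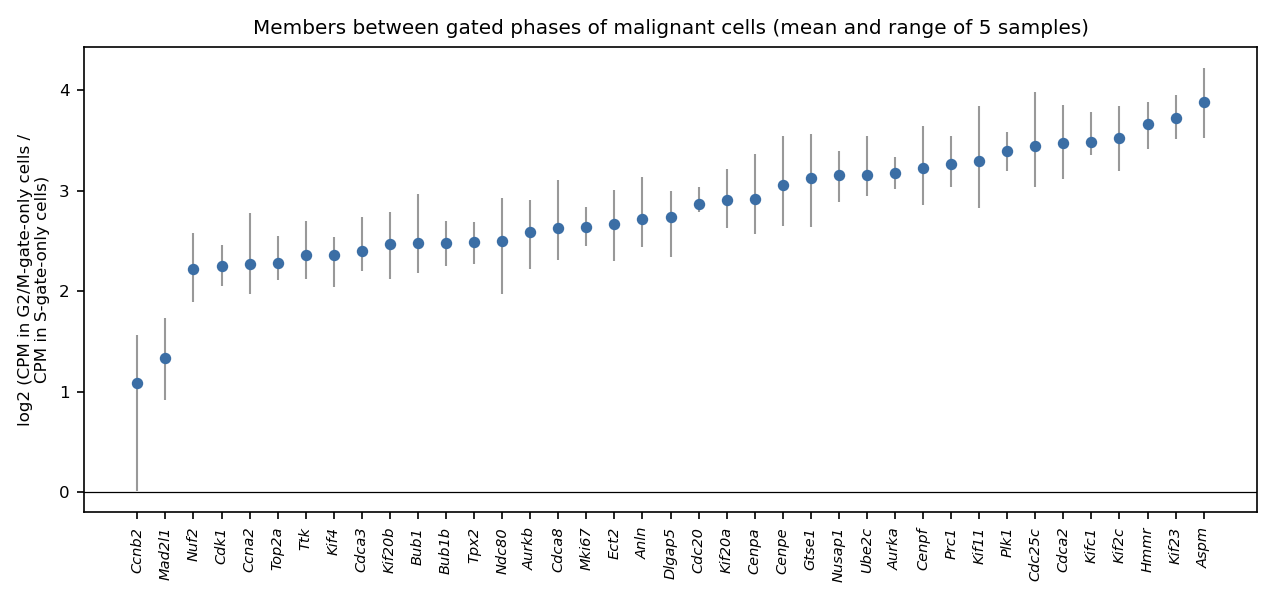
Log2 ratio of each member's CPM in malignant cells of the G2/M gate alone over cells of the S gate alone (y axis), members on the x axis in rising order; points are means and lines ranges over 5 samples. Ccnb2, which had low counts, and Mad2l1 lie lowest and Aspm is highest at 3.88.

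Under Xevinapant, the fold changes of mitotic genes in malignant cells lay below 0 in every role with the exception of Ccnb2, but no single member passed the adjusted threshold. In edgeR's quasi-likelihood test on UMI sums per sample, 0 of 39 members had an adjusted p under 0.05, beside 0.0% of all 14630 genes tested, and 30 members had an unadjusted p under 0.05, beside 1673 of all genes (11.4%).
The log2 fold change (Xevinapant minus vehicle) was below 0 for 38 of 39 members, with a median of -0.45, against a median of 0.0044 over all genes. DESeq2 called 14 members lower, beside 1.53% of its genes. Both Xevinapant samples lay below all vehicle samples for 37 of 39 members, beside 16.4% of all genes, and for 34 in CPM without TMM scaling, a correction for library composition (beside 11.9%). With every matrix as 1 mouse the count was 31 in CPM (beside 7.73%) and 30 by mean ln(1 + UMIs per 10000) over cells (8.89%).
The outside G2/M list showed the same lean, with 39 of 40 genes below 0 and a median of -0.37, and none of its genes had an adjusted p under 0.05 in edgeR, although 27 had an unadjusted p under 0.05.

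**Figure D3:**
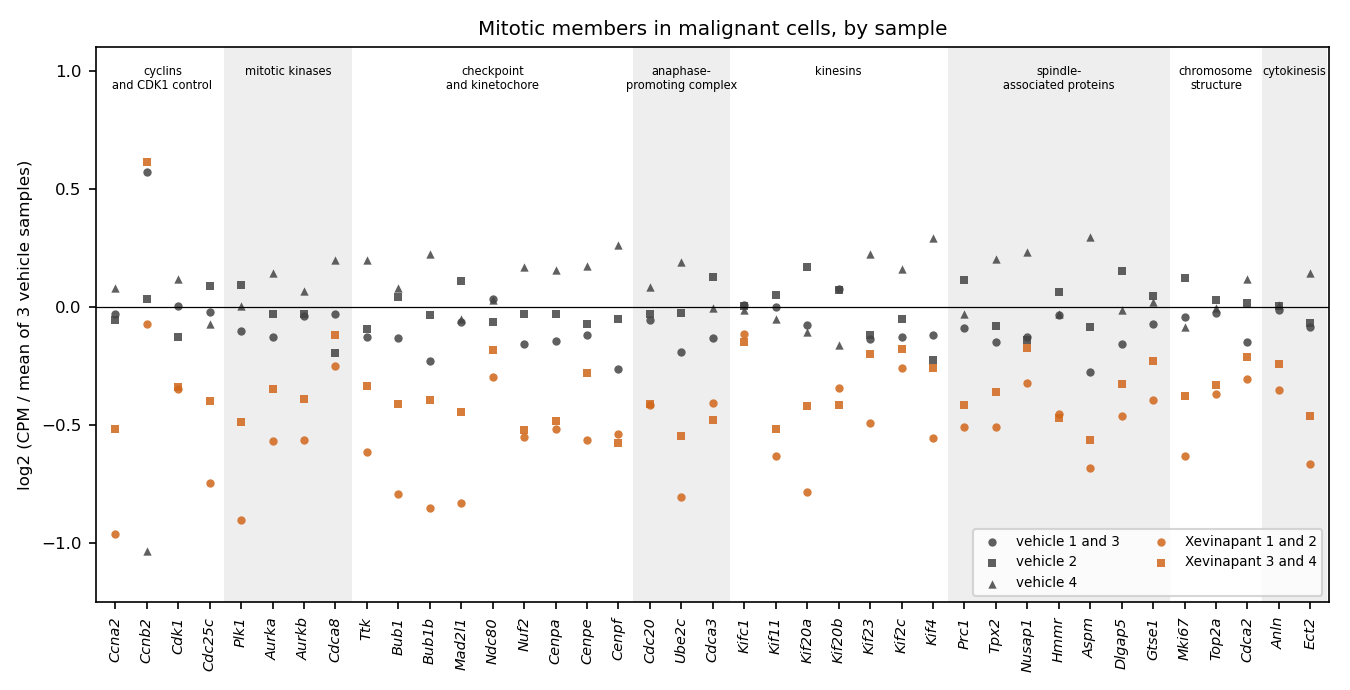
Log2 of each member's CPM over the mean of the vehicle samples (y axis), members on the x axis by role, in malignant cells; grey marks are the 3 vehicle and orange marks the 2 Xevinapant samples. Orange marks lie under the grey for nearly every gene, and Ccnb2 is the one with vehicle 4 far below.

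Among cyclins and CDK1 control, Ccna2 (cyclin A2) had the lowest fold change of all members. Its normalised level was 355, 348 and 383 CPM in the vehicle samples and 186 and 253 CPM in the Xevinapant samples, a log2 fold change of -0.72 ± 0.16 (SE, edgeR adjusted p = 0.411). The groups did not overlap. Malignant cells with at least 2000 UMIs were then thinned to 2000 UMIs, and shallower cells were left out. Ccna2 was detected in 36.4%, 36.1% and 40.5% of these cells in vehicle and in 22.1% and 29.99% in Xevinapant (p = 0.1, exact two-sided permutation test).
Unthinned and over all malignant cells, the shares were 68.7%, 70.8% and 77.4% against 50.04% and 67.3%. Neutrophils (173 and 65 cells) had Ccna2 in 1.16% of cells in Xevinapant 1 and 2 and in 12.3% in Xevinapant 3 and 4. Their median depths were 1466 and 1892 UMIs. After thinning, 0.81% and 14.8% of the deeper cells had it. The share in neutrophils thus differed between samples, on few cells, and whether it is background was not tested.
Ccnb2 was the exception of the set: 21.7, 14.9 and 7.12 CPM in vehicle and 13.9 and 22.3 CPM in Xevinapant, a log2 fold change of 0.31 ± 0.44 (edgeR adjusted p = 0.787), with vehicle 4 lowest and the groups overlapping. Cdc25c and Cdk1 had log2 fold changes of -0.56 and -0.34.

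Of the mitotic kinases and their partners, Plk1, the polo-like kinase of spindle assembly, was at 209, 240 and 225 CPM in vehicle and 120 and 160 CPM in Xevinapant (log2 fold change -0.68 ± 0.15, edgeR adjusted p = 0.411). Vehicle and Xevinapant samples were apart.
Cdca8 (borealin), the Aurora B partner in the chromosomal passenger complex, was at 85.4, 76.3 and 100 CPM in vehicle and 73.3 and 80.5 CPM in Xevinapant (-0.18 ± 0.14), where Xevinapant 3 and 4 lay within the vehicle range. The Aurora kinase genes Aurka and Aurkb had log2 fold changes of -0.45 and -0.47.

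Checkpoint and kinetochore genes were spread between Mad2l1 and Ndc80. Mad2l1 was at 102, 114 and 102 CPM in vehicle and 59.7 and 78.1 CPM in Xevinapant (log2 fold change -0.62 ± 0.15, edgeR adjusted p = 0.411).
Ndc80, a microtubule-binding kinetochore subunit, was at 58.2, 54.4 and 58.2 CPM in vehicle and 46.4 and 50.2 CPM in Xevinapant (-0.24 ± 0.11, edgeR adjusted p = 0.454). In both genes the Xevinapant samples lay below the vehicle samples.
The checkpoint kinase Bub1 and its relative Bub1b had log2 fold changes of -0.59 and -0.60, the checkpoint kinase Ttk -0.47, the centromere histone Cenpa -0.50, the kinetochore proteins Cenpf and Cenpe -0.56 and -0.42, and Nuf2 -0.54.

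In the anaphase-promoting complex group, Ube2c was at 557, 624 and 724 CPM in vehicle and 363 and 435 CPM in Xevinapant (log2 fold change -0.67 ± 0.17, edgeR adjusted p = 0.411). Cdc20, the activator, was at 180, 183 and 198 CPM in vehicle and 140 and 141 CPM in Xevinapant (-0.41 ± 0.11). Xevinapant samples were below vehicle samples in both, and Cdca3, a trigger of mitotic entry, had a log2 fold change of -0.44.
Among kinesins, Kif20a, a cytokinesis motor, was at 125, 148 and 122 CPM in vehicle and 76.7 and 98.8 CPM in Xevinapant (-0.59 ± 0.15). Kifc1, a minus-end motor that gathers spindle poles, was at 154, 154 and 152 CPM in vehicle and 142 and 138 CPM in Xevinapant (-0.13 ± 0.10).
Kifc1 thus had a small difference that still left the groups apart. The bipolar spindle motor Kif11 had the smallest unadjusted p of the members, 0.00102, at a log2 fold change of -0.57 ± 0.11, and Kif4, Kif20b, Kif23 and Kif2c had log2 fold changes of -0.40, -0.38, -0.34 and -0.22.

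Among spindle-associated proteins, Aspm was at 128, 146 and 191 CPM in vehicle and 96.7 and 105 CPM in Xevinapant (log2 fold change -0.62 ± 0.18, edgeR adjusted p = 0.411). Nusap1, which bundles spindle microtubules, was at 203, 201 and 261 CPM in vehicle and 177 and 196 CPM in Xevinapant (-0.25 ± 0.15). Xevinapant samples lay below vehicle samples in both genes, for Nusap1 by a narrow gap.
Hmmr, Prc1, Tpx2, Dlgap5 and Gtse1 had log2 fold changes of -0.46, -0.46, -0.43, -0.39 and -0.31. The chromosome structure genes Mki67, Top2a and Cdca2 had -0.50, -0.35 and -0.26. The cytokinesis genes Ect2, an activator of RhoA, and Anln (anillin) had -0.56 and -0.30.
By share of cells, both Xevinapant samples lay below all vehicle samples for 34 of 39 members after thinning to 2000 UMIs, with shallower cells left out, beside 14.1% of 14129 genes. Without thinning the count was 20, beside 6.61%. The mean ln(1 + UMIs per 10000) over cells gave 34 members, beside 14.2%.

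The share of malignant cells in the G2/M gate, which uses no member, was 43.602%, 46.9% and 51.2% in vehicle and 30.9% and 43.561% in Xevinapant, so the highest Xevinapant sample lay just under the lowest vehicle sample. With each matrix as 1 mouse the groups overlapped, since Xevinapant 3 was at 44.9%, vehicle 1 at 44.3% and vehicle 3 at 42.98% (difference -9.11 points, p = 0.0857, exact permutation test). Over the 5 samples the mean difference was -10.0 percentage points (p = 0.1, exact two-sided permutation test, the smallest p possible). It was -3.67 points without Xevinapant 1 and 2 and -16.4 points without Xevinapant 3 and 4. The groups overlapped without the top 5% of barcodes by UMIs (p = 0.2, exact permutation test), and with at least 10 or at least 30 list genes or the shared barcodes kept (p = 0.3 each, exact permutation test). With stricter gates they did not overlap (p = 0.2, exact permutation test).
With cells thinned to 5000 UMIs, the shares were 24.9%, 25.1% and 27.9% in vehicle and 18.0% and 20.2% in Xevinapant (p = 0.1, exact permutation test). Shallower cells were left out, which kept 79.68%, 79.85% and 82.44% of vehicle malignant cells. It kept 73.27% of those of Xevinapant 1 and 2 and 79.84% of those of Xevinapant 3 and 4. The S gate gave 51.9%, 52.9% and 57.4% in vehicle and 37.0% and 52.3% in Xevinapant, which overlapped (difference -9.45 points, p = 0.2, exact permutation test; -1.85 points without Xevinapant 1 and 2). Thinned to 5000 UMIs, the S gate differed by -2.40 points (p = 0.6, exact permutation test), and with at least 10 list genes, a setting chosen after seeing the data, by -12.2 points without overlap (p = 0.1, exact permutation test). With stricter gates the unthinned S difference was -9.35 points (p = 0.1, exact permutation test).
Within G2/M-gated malignant cells the members lay closer to vehicle: 34 of 39 were below 0, the median log2 fold change was -0.21 (-0.29 without Xevinapant 1 and 2 and -0.13 without Xevinapant 3 and 4), and 0 had an adjusted p under 0.05 in edgeR (beside 0.0% of 14169 genes), with 10 at an unadjusted p under 0.05 (beside 7.88%) and 2 called by DESeq2 (beside 0.368%). Both Xevinapant samples lay below every vehicle sample for 20 members, beside 14.4% of genes, and above for 0, beside 12.6%.
Ccna2 was at a log2 fold change of -0.50, Plk1 at -0.45 and Ube2c at -0.44 in these cells, while Kif2c was at 0.03 and Kifc1 at 0.11. In malignant cells outside the gate all 39 members were below 0, with a median of -0.61, and 0 had an adjusted p under 0.05 in edgeR (beside 0.0% of 13923 genes). In those cells 33 had an unadjusted p under 0.05 (beside 14.9%), DESeq2 called 23 (beside 2.83%), and both Xevinapant samples lay below every vehicle sample for 38 members, beside 18.5% of genes, and above for 0, beside 16.9%.
Whether the members' fold change differed between cells inside and outside the gate was not tested. The gate was applied without thinning, and the gated malignant cells differed in depth between the groups. Their median was 22947, 23206 and 23910 UMIs in vehicle and 26310 and 30106 UMIs in Xevinapant. The part of this depth in the fold changes inside the gate was not tested.

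The same lean was found in each tumor state that could be fitted. In edgeR 0 members had an adjusted p under 0.05 in OPC-like (beside 0.0% of genes), AC-like (0.0%), MES-like (0.127%) and premyelinating-like cells (0.0%). Unadjusted p lay under 0.05 for 29 (beside 12.5% of genes), 25 (9.0%), 30 (15.1%) and 35 members (11.6%), and DESeq2 called 7 (beside 0.97% of its genes), 4 (0.316%), 11 (1.05%) and 6 (0.259%).
The median log2 fold change of the members was -0.39 in OPC-like, -0.56 in AC-like, -0.56 in MES-like and -0.9985 in premyelinating-like cells. Premyelinating-like cells numbered 144, 44 and 113 in vehicle and 120 and 117 in Xevinapant. The pooled SD between samples of the members' median log2 CPM was 0.49 there. It was 0.11 in OPC-like, 0.27 in AC-like and 0.11 in MES-like cells. The AC-like median ran from -0.72 (without Xevinapant 1 and 2) to -0.32 (without Xevinapant 3 and 4) when 1 sample was left out. Both Xevinapant samples lay below every vehicle sample for 36 members in OPC-like cells (beside 17.1% of genes), 24 in AC-like (13.5%), 34 in MES-like (16.9%) and 29 in premyelinating-like cells (14.9%). They lay above for 0 members in each state, beside 16.7%, 13.6%, 16.5% and 14.7% of genes. With every matrix as 1 mouse the counts below in CPM were 27 (beside 7.35%), 8 (6.24%), 23 (7.11%) and 7 (5.23%), and by mean ln(1 + UMIs per 10000) 27 (7.8%), 3 (4.58%), 15 (6.33%) and 13 (4.2%).
In premyelinating-like cells Aspm had a log2 fold change of -1.71, Ube2c -1.64 and Ccna2 -1.44. In that state edgeR called 26 members lower (beside 0.669% of genes) once vehicle 1 and 3, the vehicle sample with the lowest level, was left out. In AC-like cells Aurkb had the lowest value, -0.93, and in MES-like cells Ttk, also -0.93. Differences between states were not tested.

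The number of members called depended on whether alike matrices were joined and on the block. With each of the 8 matrices taken as 1 mouse, edgeR called 24 members in malignant cells (beside 4.67% of genes), 21 in OPC-like (5.31%), 1 in AC-like (0.284%), 19 in MES-like (5.0%), 6 in G2/M-gated malignant cells (1.78%) and 28 in malignant cells outside the gate (9.81%).
With the matrix number as a replicate block it called 0 in malignant, 0 in OPC-like and 0 in G2/M-gated malignant cells (34 of 39 members in malignant cells had an unadjusted p under 0.05, beside 3616 of 14543 genes), 1 in AC-like (0.225%), 15 in MES-like (3.57%), 6 in premyelinating-like cells (0.256%) and 24 outside the gate (5.87%). For the blocked fits with 0 members called, the share of all genes called is not given here, so those counts cannot be weighed against it. Without the filter on low counts, and with matrices joined, edgeR called 14 in AC-like (1.98%), 18 in MES-like (4.83%), 27 in premyelinating-like cells (1.4%), 1 in endothelial cells (2.36%) and 5 in fibroblasts (2.8%).

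**Figure D4:**
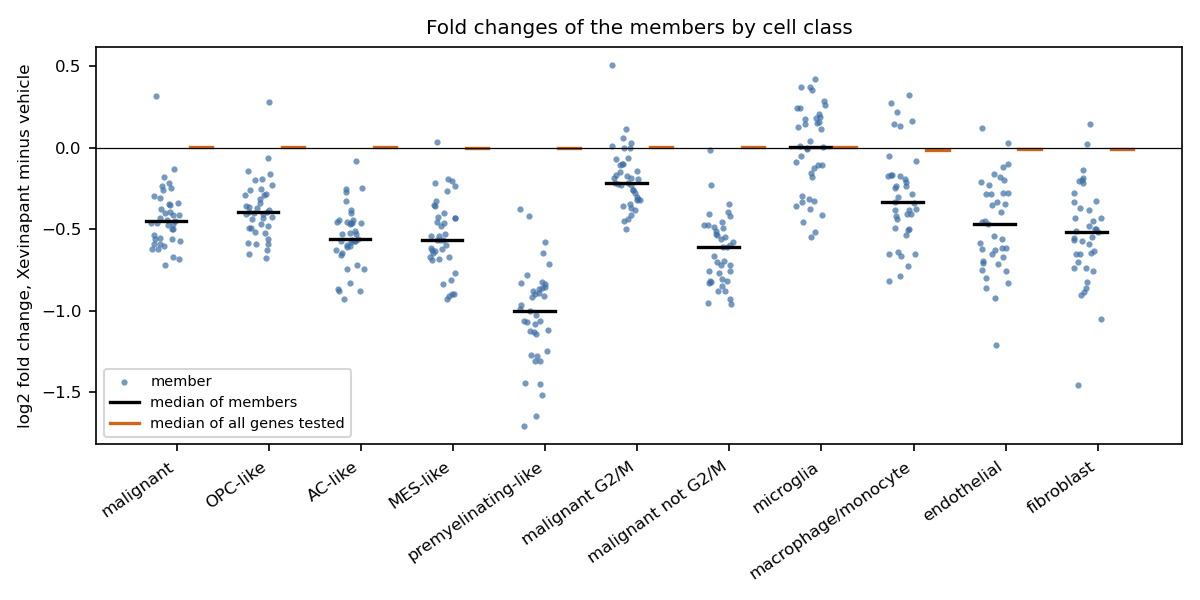
Log2 fold change of each member (y axis, Xevinapant minus vehicle; 1 blue point per member) by cell class (x axis), with the members' median in black and that of all genes tested in orange. The members' median lies below 0 in every tumor state fitted, and also in macrophages and monocytes, endothelial cells and fibroblasts. It lies at 0.01 in microglia.

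In microglia the members were spread on both sides of 0: 19 of 39 were below it, the median log2 fold change was 0.0058, and 0 had an adjusted p under 0.05 in edgeR (beside 0.0111% of 9029 genes), with 2 at an unadjusted p under 0.05 (beside 5.52%). The Xevinapant samples were both lower for 2 members (beside 10.6% of genes) and both higher for 5 (11.1%) in TMM-scaled CPM. By thinned share of cells 6 were lower (beside 11.1%) and 2 higher (9.66%), and by mean ln(1 + UMIs per 10000) 6 were lower (6.85%) and 2 higher (15.2%), so the balance turned with the measure.
Of the members above 0 there, Mki67 had a log2 fold change of 0.37 and Kif20b of 0.42. In malignant cells these genes had -0.50 and -0.38, and the difference between the classes was not tested. In macrophages and monocytes 33 of 39 were below 0 with a median of -0.33, which ran from -0.51 (without vehicle 1 and 3) to 0.0025 (without vehicle 2) when 1 sample was left out, and 0 had an adjusted p under 0.05 in edgeR (beside 0.0% of genes), with 3 at an unadjusted p under 0.05 (beside 10.9%). Both Xevinapant samples were lower for 4 members in TMM-scaled CPM (beside 13.6%), for 11 by thinned share (11.3%; 0 were higher, beside 13.4%) and for 9 by mean ln(1 + UMIs per 10000) (6.66%; 1 was higher, beside 22.8%).
Endothelial cells and fibroblasts gave medians of -0.47 and -0.52. Leaving out 1 sample moved the first to between -0.66 and -0.18 (-0.18 without vehicle 2) and the second to between -0.84 and -0.22 (-0.22 without vehicle 4, -0.25 without Xevinapant 3 and 4 and -0.84 without Xevinapant 1 and 2). Both classes had 0 members with an adjusted p under 0.05 in edgeR (beside 0.754% and 0.0% of genes), with 9 (beside 13.6%) and 7 members (9.11%) at an unadjusted p under 0.05. Both Xevinapant samples lay below every vehicle sample for 7 (beside 14.4%) and 4 members (12.5%) and above for 0 in both classes, beside 16% and 12.8%. These classes hold 257 and 670 cells, and the differences from malignant cells were not tested.

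Ccnb2 stood apart from the other members by cell type. It was examined further after its values had been seen. In all cells of a class, Ccnb2 was at 7.12 to 22.3 CPM in malignant cells and at 68.9 to 155 CPM in microglia, and no sample of the first class reached the second. In macrophages and monocytes, few of which were in the G2/M gate, it was at 22.3 to 54.9 CPM.
Among G2/M-gated cells, Ccnb2 was at 24.6, 15.4 and 6.94 CPM (TMM-scaled) in vehicle malignant cells and at 19.5 and 26.1 CPM in Xevinapant ones. G2/M-gated myeloid cells (microglia, macrophages and monocytes, and cells with markers of both, 12 to 65 per sample) had 188, 139 and 226 CPM in vehicle and 251 and 165 CPM in Xevinapant.
Every myeloid value lay above every malignant value. Within each of the 5 samples both cell types came from the same libraries, and edgeR with sample as a block gave Ccnb2 a log2 fold change (malignant minus myeloid) of -3.55 ± 0.30 (adjusted p = 7.5e-07).
In that fit 15 members were lower in malignant cells (beside 26.9% of 13710 genes) and 2 were higher (beside 31.3%). The next lowest members were Ndc80 at -1.17 ± 0.11, Cdca8 at -0.88 ± 0.11 and Kif2c at -0.87 ± 0.11, while Aspm was highest at 0.61 ± 0.17. Without TMM scaling 5 members were lower (beside 20.5% of genes) and 13 higher (46.8%), and Ccnb2 was at -3.20. The gate was not thinned, and gated myeloid cells were shallower, at medians of 12311 to 17958 UMIs against 22947 to 30106 in gated malignant cells. The part of this depth in the comparison was not tested.
No UMI of Ccnb2 was found in 65.5%, 76.1% and 86.8% of G2/M-gated malignant cells of the vehicle samples and in 72.5% and 58.2% of those of the Xevinapant samples, at medians of 22947 to 30106 UMIs. In gated myeloid cells the share without a UMI was between 16.9% and 50%, at 12311 to 17958 UMIs.
At least 5 UMIs of Ccnb2 were seen in 0.62% to 5.21% of gated malignant cells and in 16.7% to 33.3% of gated myeloid cells. The gated myeloid cells carried 393 to 1756 CPM of the malignant markers, against 6127 to 8058 CPM in the gated malignant cells. The part of tumor RNA in the myeloid values was not tested. The counts come from a probe-based assay, and all tumors come from 1 implanted line. Host glial cells within the malignant class were not set apart. Whether the Ccnb2 probes read tumor and host RNA alike was not tested.
Over the pooled gated cells of all samples, Ccnb2 was at 19.9 CPM in malignant cells, 95.6 in fibroblasts, 123 in endothelial cells, 175 in microglia and 193 in macrophages and monocytes. The samples enter these pooled values unequally, and no values per sample are given for gated fibroblasts and endothelial cells. The log2 ratio of malignant cells over fibroblasts was -2.26 for Ccnb2 and between -0.10 and 1.395 for the other 38 members, and over endothelial cells it was -2.63 for Ccnb2 and between -0.18 and 1.35 for the others. Gated fibroblasts and endothelial cells carried 1857 and 2407 CPM of malignant markers, against 883 and 897 CPM in their ungated cells and 6903 CPM in gated malignant cells, and their median UMIs were 27173 and 22814 against 4914 and 3510 in the ungated. The part of this in the ratios was not tested.

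**Figure D5:**
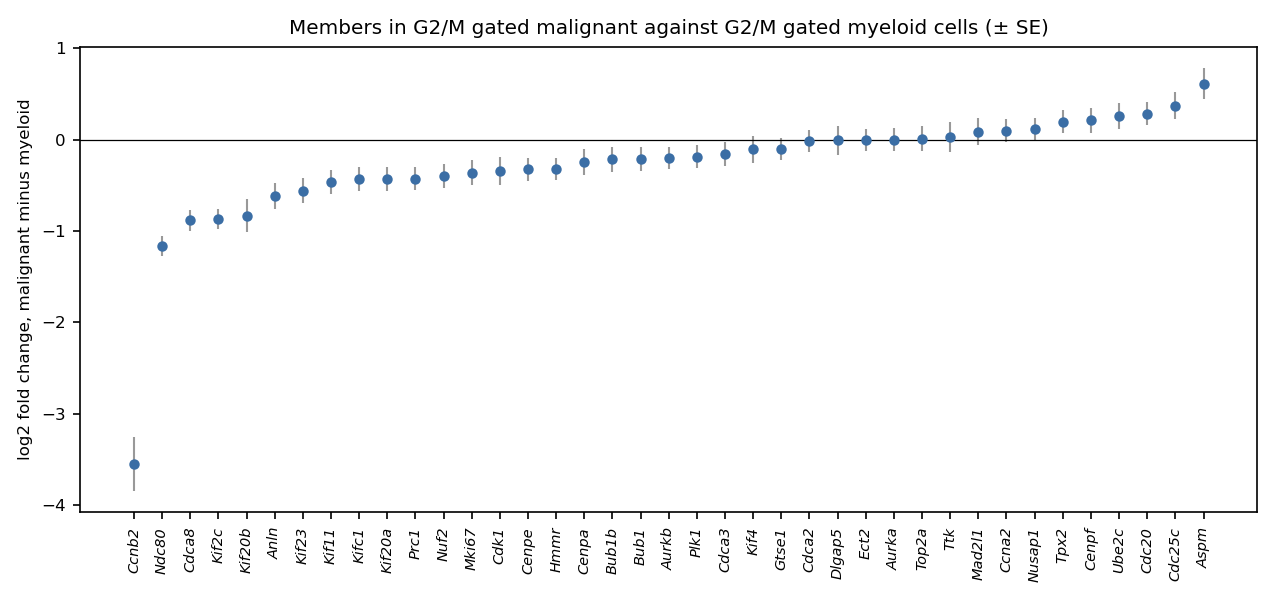
Log2 fold change of each member between G2/M-gated malignant and G2/M-gated myeloid cells (y axis, malignant minus myeloid), members on the x axis in rising order; bars are SE from edgeR with 5 samples as blocks. Ccnb2 lies at -3.55, and the other members lie between -1.17 and 0.61.

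Ccnb2 lies on chromosome 9 at 70407692 to 70421547 (GRCm38, minus strand). In the same fit its nearest measured neighbour, Rnf111, 3877 bases beyond its start, was at a log2 fold change of -0.61 ± 0.13 (edgeR adjusted p = 0.00165). Sltm beyond that was at -0.0041 ± 0.12 (edgeR adjusted p = 0.982) and Mindy2 next at -0.66 ± 0.12 (edgeR adjusted p = 0.0006). Myo1e, 7926 bases away on the other side, was at -3.49 ± 0.20 (edgeR adjusted p = 1.51e-08). Fam81a further out was at 1.03 ± 1.13 (edgeR adjusted p = 0.449) and Gtf2a2 beyond it at 0.36 ± 0.14 (edgeR adjusted p = 0.0436). Calls were common among all 13710 genes of that fit, 26.9% of which were lower and 31.3% higher in malignant cells. A part of the location in these values was not tested.
Of the same role as Ccnb2, Ccna2 was at 0.10, Cdk1 at -0.34 and Cdc25c at 0.37 in that comparison, and of these Cdc25c passed the threshold (edgeR adjusted p = 0.0425).
Ccnb2 differed among malignant samples of 1 group as well: G2/M-gated cells of vehicle 1 and 3 had 24.6 CPM and those of vehicle 4 had 6.94 CPM. Ccnb1, the other B-type cyclin of the list, has no row.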

How the data were processed

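Single-cell RNA was measured with a probe-based assay in 8 matrices, 4 per group. The authors deposited UMI counts per gene and barcode, made with Cell Ranger (7.1.0 per the file headers), and the submitters' notes name mm10 and Seurat. Total UMIs per matrix ran from 71835789 to 300206053, and intervals and floors cover counting error only.

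The study's filters (200 genes or more, a mitochondrial share up to 10%, complexity 0.8 or above) were applied and passed 54574 of 56943 barcodes, and 1148 of these were left out as the smaller of a pair of shared barcodes at least 20 times apart in UMIs. Cells were classed by marker UMIs. In place of a doublet caller, 413 barcodes that met gates of more than 1 lineage, or a non-tumor gate with at least 60 malignant marker UMIs per 10000, were left out.
Matrices of a group that differed by less than 5 times the sampling noise, and in cell makeup by a chi-square divided by its degrees of freedom under 2, were joined, which left 5 samples. The paper's results give 4 tumors per group, and its supplemental methods speak of samples of individual mice. This points to separate mice, so joining may discard real replicates. The fits with each matrix as 1 mouse are given beside the main ones, and p-values measure the spread between these samples only.

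UMI sums per sample and class were tested across all genes with edgeR 4.0.16 (R 4.3.3; TMM, quasi-likelihood, Benjamini-Hochberg, threshold 0.05), for classes with at least 10 cells in each sample. DESeq2 1.42.0 was an alternative. For shares, an exact permutation test over samples (two-sided) was used. The scripts were tested on simulated data.
The members and lists were chosen with earlier results of these data known. Values per sample are printed for the members with the smallest and largest fold change of a role, to at most 12. The shared barcodes follow the matrix number, but the expression deviations of same-numbered matrices correlated at 0.31, -0.10, -0.33 and 0.25, so the number was not used to pair the groups in the main tests.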

Additional observations from a re-analysis of the deposited data

How the results depend on the processing

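The median log2 fold change of the members stayed below 0 under every alternative run in malignant cells (-0.52 to -0.39) and in OPC-like, AC-like, MES-like and premyelinating-like cells (-1.28 to -0.32 over these states). In microglia it ran from -0.20 to 0.14, and in macrophages and monocytes stricter gates gave 0.15 against -0.33, and leaving out 1 sample -0.51 to 0.0025. It ran from -0.66 to -0.18 in endothelial cells and from -0.84 to -0.22 in fibroblasts.
Counts of members past the threshold moved from 0, and the share of all genes called stands in brackets for counts above 0. DESeq2 called 14 in malignant (1.53%), 7 in OPC-like (0.97%), 4 in AC-like (0.316%), 11 in MES-like (1.05%), 6 in premyelinating-like (0.259%), 2 in G2/M-gated (0.368%) and 23 in malignant cells outside the gate (2.83%).
Without the low-count filter edgeR called 14 in AC-like (1.98%), 18 in MES-like (4.83%), 27 in premyelinating-like cells (1.4%), 1 in endothelial cells (2.36%) and 5 in fibroblasts (2.8%). Leaving out 1 sample at a time gave 0 to 26 in premyelinating-like cells (26 without vehicle 1 and 3, 0.669%) and 0 in the other classes.
With each matrix taken as 1 mouse and no replicate block, edgeR called 24 in malignant (4.67%), 21 in OPC-like (5.31%), 1 in AC-like (0.284%), 19 in MES-like (5.0%), 6 in G2/M-gated cells (1.78%) and 28 outside the gate (9.81%). With the matrix number as a replicate block it called 0 in malignant, OPC-like and G2/M-gated cells (share of all genes not given), 1 in AC-like (0.225%), 15 in MES-like (3.57%), 6 in premyelinating-like cells (0.256%) and 24 outside the gate (5.87%). These fits count the alike matrices as separate animals, as the study's 4 tumors per group would have it, and the causes were not tested.
The count of members lower by share of cells was 34 thinned and 20 without thinning. The difference in G2/M share ran from -16.4 to -3.67 points, and that in S share from -17.1 to -1.85 points, when 1 sample was left out. Keeping the shared barcodes, an alternative chosen after seeing the data, gave -9.47 points for G2/M, and over all settings with 5 samples the exact permutation p ran from 0.1 to 0.3 for G2/M and from 0.1 to 0.6 for S.
The contrast of Ccnb2 between cell types and its alternatives were also chosen after seeing the data, and ran from -3.75 to -3.09. MES-like cells could not be fitted under stricter gates. The remaining 295 values kept their direction and side of the threshold, moved by less than the spread between samples or, for counts of members, stayed within a fixed factor of the main count. By that last rule the count lower by thinned share was held as kept. It ran from 34 to 38 with 1 sample left out and was 31 with each matrix as 1 mouse. For gate shares over the 5 joined samples the exact permutation p cannot go below 0.1, and the limit is higher with 1 sample left out. Their side of the threshold was thus fixed in advance and does not show that they held. The G2/M groups came to overlap with at least 10 list genes (p = 0.3, exact permutation test) without crossing it.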
